A study of Homo sapiens with 6 samples.

Results

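The alpha and beta tubulin isotypes were examined in neuroblastoma cells depleted of the long noncoding RNA CyCoNP. The members were chosen by gene symbol and comprised 10 of the 60676 genes listed in the deposited tables, 3 alpha tubulins (TUBA1A, TUBA1B and TUBA1C) and 7 beta tubulins (TUBB, TUBB2A, TUBB2B, TUBB3, TUBB4A, TUBB4B and TUBB6). All 10 passed the expression filter and belonged to the 13966 genes tested. RNA was sequenced from SK-N-BE, an established human neuroblastoma cell line that takes on neuronal features under retinoic acid. Both groups were kept for 1.5 days in differentiation medium containing 10 μM retinoic acid, and received either a scrambled siRNA (si-SCR, 3 libraries) or a pool of siRNAs against CyCoNP (si-CyCoNP, 3 libraries). The labels do not say that the libraries came from separate cultures, so that p-values measure the spread between these samples, which may be technical.

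Microtubules are hollow polymers of heterodimers, each made of an alpha and a beta tubulin. Humans encode several isotypes of each, which are nearly identical in the globular body and differ mostly in the acidic C-terminal tail, the segment exposed on the microtubule surface and the substrate of many tubulin-modifying enzymes. Tubulin mRNAs are also autoregulated: when free tubulin accumulates, TTC5 recognises the first residues of a nascent tubulin chain on the ribosome and the mRNA is degraded. In neurons, TUBA1A, TUBB2A, TUBB2B and TUBB3 are prominent isotypes, and TUBB3 is a widely used neuronal marker.

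The coding sequences are shown because their likeness decides which fragments can be assigned to 1 isotype. Reading from the GENCODE v44 transcripts on GRCh38, the first 24 coding bases are given 5′ to 3′, with the first 4 codons, which encode the residues read in autoregulation, in capitals.
TUBA1A: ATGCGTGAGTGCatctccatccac
TUBB: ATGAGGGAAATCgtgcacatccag
TUBB2A: ATGCGCGAGATCgtgcacatccag
TUBB2B: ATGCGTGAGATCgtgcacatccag
TUBB4A: ATGCGGGAGATCgtgcacctgcag
The 24 bases of TUBA1A were shared by TUBA1B and TUBA1C. TUBB and TUBB4B shared their first 12 bases, as did TUBB3 and TUBB6.

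The last 30 coding bases before the stop codon encode the end of the C-terminal tail, and are given for 2 pairs of beta members, with bases that differ within a pair in capitals.
TUBB2A: ttcgaggaggaggagggcgaggacgaggcT
TUBB2B: ttcgaggaggaggagggcgaggacgaggcG
TUBB: GATTTCgGTgaggAGgCCgaAgaggAggcc
TUBB4B: TTCGAGgAGgaggCTgAGgaGgaggTggcc
TUBB2A and TUBB2B differed in 1 of these 30 bases and TUBB and TUBB4B in 14. Over the whole coding sequence, TUBA1A and TUBA1B were 97.2% identical and TUBB2A and TUBB2B 98.1%, whereas TUBB was between 81.3% and 84.9% identical to the other beta members.

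Only fragments mapping to 1 place in the genome and to 1 gene were counted, and this limited the members unequally. The annotated mRNA of each member was divided into all its windows of 100 bases, and a window was called countable if it matched the genome once and did not lie in exons of another gene on the same strand. All windows of TUBB4A and TUBB6 were countable, as were 97.0% of those of TUBB4B and 94.6% of those of TUBB. The share was 78.8% for TUBA1A, 62.8% for TUBA1B, 51.3% for TUBB2B and 44.4% for TUBB2A. Reads were paired, so that a fragment can be placed where a single window of 100 bases cannot. With windows of 200 bases the share was 98.5% for TUBA1A, 89.6% for TUBA1B, 64.4% for TUBB2B and 56.7% for TUBB2A. Within the coding sequence alone, the share of 100-base windows was 32.0% for TUBB2A and 28.3% for TUBB2B. All 100-base windows of their 3′ untranslated regions matched once. TUBB3 (chr16:89921392-89938761, plus strand, GRCh38) shares, in GENCODE v44, 92.8% of the bases of its mRNA with a readthrough gene annotated on the same strand (ENSG00000198211), and 18 of its 1607 windows were countable, or 1.12%. The readthrough gene itself had 0 counts in all 6 libraries. If the release used for counting, which was not analysed here, holds the same overlap, nearly all TUBB3 fragments were left out, and the values listed for TUBB3 are therefore not read below as the level of its mRNA.

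**Figure D1:**
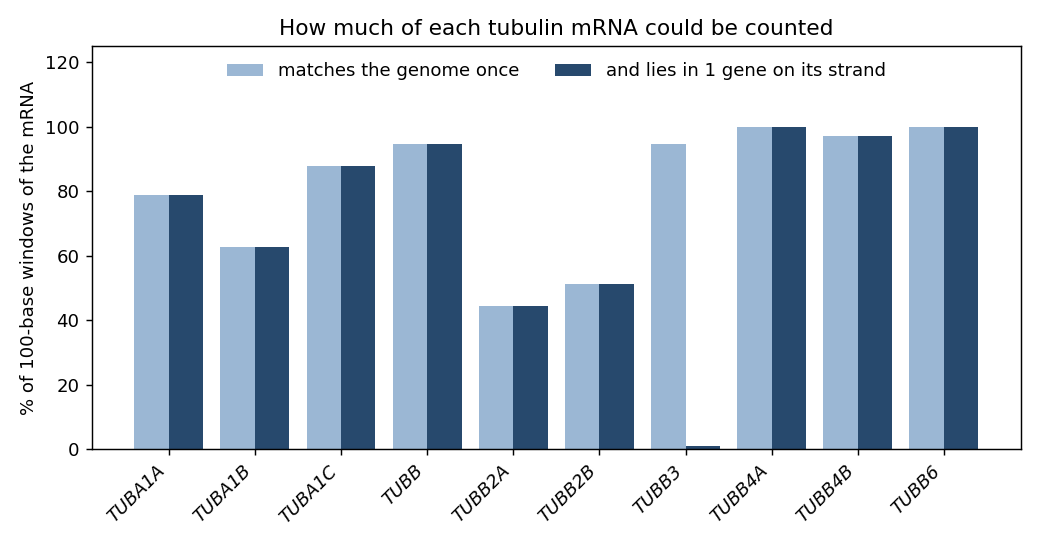
For each tubulin isotype, the light bar is the percent of 100-base windows of its mRNA that matched the genome once, and the dark bar the percent that also lay in 1 gene on that strand. TUBB3 drops from 94.6% to 1.12%, while both bars are equal for the other 9 members.

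The knockdown was checked first. LINC02381, the gene that encodes CyCoNP, was counted 274, 208 and 315 times with si-SCR but 20, 30 and 12 times with si-CyCoNP, a log2 fold change of -3.78 ± 0.190 (SE; edgeR quasi-likelihood test, adjusted p = 6.84e-14). TUBA1A, TUBA1B and TUBA1C lie on the same chromosome, between 4.85 and 4.99 Mb from it. The libraries held from 3762009 to 4799407 counts, and the 10 tubulins took 0.718% ± 0.0113 of them in si-SCR and 0.672% ± 0.00454 in si-CyCoNP (SD, n = 3).

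Isotype levels were described first as FPKM, which scales the count by gene length and library total, without the TMM correction for library composition that enters the fold changes below. In si-SCR, TUBB was listed at 747 ± 24.99 FPKM, TUBA1A at 727 ± 43.1 and TUBA1B at 476 ± 41.8 (SD, n = 3). TUBB and TUBA1A overlapped in si-SCR and could not be ordered beyond their spread. TUBB4B followed at 219 ± 14.9 FPKM, TUBB2B at 63.8 ± 4.49, TUBB2A at 47.9 ± 4.43 and TUBB6 at 18.7 ± 1.07. TUBB4A at 4.11 ± 0.245, TUBB3 at 3.13 ± 0.671 and TUBA1C at 1.94 ± 0.493 FPKM came last. TUBB, TUBA1A and TUBA1B thus made up most of the summed level. The order of the leading isotypes depends on the length used: with the number of countable windows of 100 bases in place of the gene length in the FPKM formula, TUBA1A stood at 1863 ± 111, TUBA1B at 1770 ± 156 and TUBB at 1049 ± 35.1 in si-SCR (SD, n = 3). These levels depend on the window length too. From 100 to 200 bases, countable windows rose from 1240 to 1451 for TUBA1A, 960 to 1279 for TUBA1B and 2285 to 2303 for TUBB. Values per window below were computed with 100 bases only.

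**Figure D2:**
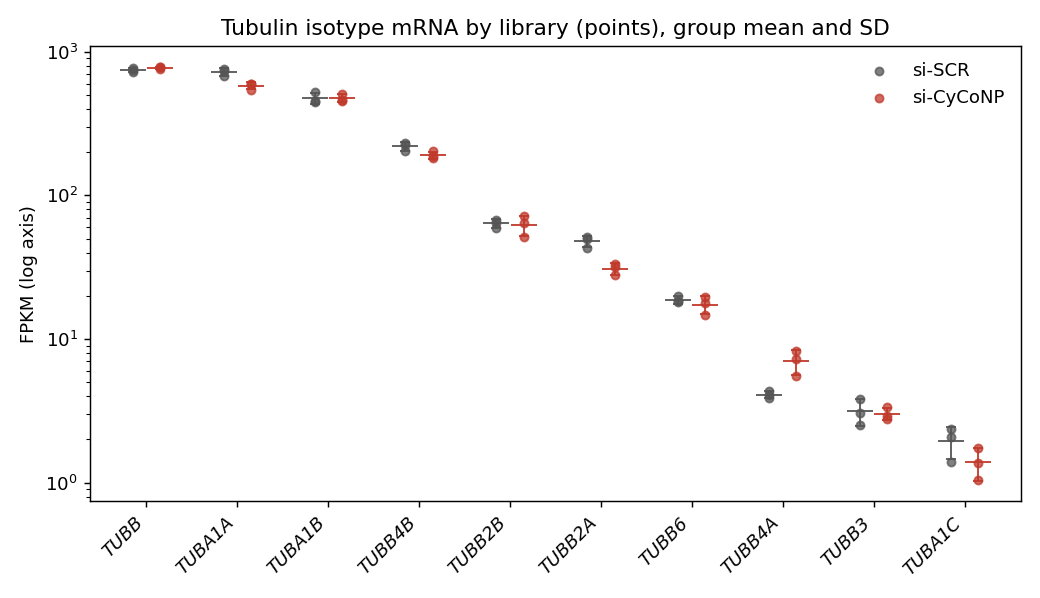
FPKM of each tubulin isotype on a log axis, with 1 point per library and the group mean and SD, ordered by the si-SCR mean. The groups are apart for TUBA1A and TUBB2A, lower in si-CyCoNP, and for TUBB4A, higher in si-CyCoNP.

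CyCoNP depletion was accompanied by lower TUBB2A, TUBA1A and TUBB4B mRNA and by higher TUBB4A mRNA. Of the 10 members, 1 was higher and 3 were lower at an adjusted p under 0.05 (edgeR quasi-likelihood test, Benjamini-Hochberg adjustment over all genes tested), and 6 did not pass. Among all genes tested, 14.2% were higher and 14.2% were lower. None of the members passed an absolute log2 fold change of 1 together with that threshold, as 5.26% of all genes did. The median log2 fold change was -0.15 over the members and 0.0053 over all genes tested.

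TUBB2A (chr6:3153497-3157544, minus strand), a beta isotype abundant in neurons, showed the strongest reduction. It was listed at 49.95, 50.9 and 42.8 FPKM in si-SCR and at 31.9, 33.1 and 27.7 FPKM in si-CyCoNP. The groups were fully apart, with the 3 depleted libraries below the 3 controls. The log2 fold change was -0.70 ± 0.110 (SE; edgeR quasi-likelihood test, adjusted p = 1.82e-05), so that 61.8% of the si-SCR level remained, with a 95% interval from 52.8% to 72.2%. These values rest on 201 to 375 counts per library.

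Its close relative and neighbour TUBB2B (chr6:3223324-3231730, minus strand), mutated in cortical malformations, had 64.3, 68.0 and 59.1 FPKM with si-SCR and 64.3, 71.4 and 51.6 FPKM in si-CyCoNP. These groups overlapped, and the log2 fold change of -0.097 did not pass the test (edgeR quasi-likelihood test, adjusted p = 0.524), with 80.8% to 108% of the si-SCR level in the 95% interval. The ratio of TUBB2A to TUBB2B FPKM was 0.777, 0.749 and 0.725 with si-SCR and 0.497, 0.464 and 0.538 in si-CyCoNP. The ratios of the groups did not overlap, and an exact two-sided permutation test gave p = 0.1, the smallest that 3 libraries against 3 allow. This ratio and those of TUBA1A to TUBA1B and of TUBB4A to TUBB were chosen after the values had been seen.

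TUBA1A (chr12:49184686-49189080, minus strand), the main alpha isotype of developing neurons, was listed at 765, 736 and 680 FPKM in si-SCR and at 598, 600 and 544 FPKM in si-CyCoNP. The groups did not overlap, and the lowest si-SCR library stood above the highest si-CyCoNP library. The log2 fold change was -0.39 ± 0.076 (SE; edgeR quasi-likelihood test, adjusted p = 0.000242), with 76.2% of the level remaining and a 95% interval from 68.3% to 84.9%. TUBA1B, expressed in most tissues, was listed at 454, 449 and 524 FPKM in si-SCR and at 463, 452 and 509 FPKM in si-CyCoNP, with overlapping groups. Its log2 fold change of -0.068 did not pass (edgeR quasi-likelihood test, adjusted p = 0.553), and its 95% interval ran from 85.5% to 106% of the si-SCR level. The ratio of TUBA1A to TUBA1B was 1.54 ± 0.211 in si-SCR and 1.23 ± 0.141 in si-CyCoNP (SD, n = 3), and the groups overlapped (exact permutation test, two-sided, p = 0.2). In both groups replicate 3 had the lowest TUBA1A and the highest TUBA1B.

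TUBA1C, the third alpha member, was near the lower limit of the expression filter, with 31 to 47 counts in si-SCR and 20 to 39 in si-CyCoNP. In GENCODE v44, 87.7% of its windows were countable and no other gene shared its exons on the same strand, while ENSG00000258232 overlapped its mRNA on the opposite strand. The gene length behind the deposited FPKM (4631 bases) differed from that of the v44 exons (4454 bases). These lengths differed by more for TUBA1A (3178 and 3823), TUBB (3208 and 4071), TUBB2A (1748 and 2907), TUBB2B (2096 and 4160) and TUBB3 (4430 and 7421). They were equal for TUBA1B, TUBB4A, TUBB4B and TUBB6. Whether the low listed level of TUBA1C, which also enters the alpha sum, depends on the annotation used for counting was not tested. Its log2 fold change of -0.53 ± 0.275 did not pass (SE; edgeR quasi-likelihood test, adjusted p = 0.164). Without si-SCR replicate 3 it was -0.75 with an adjusted p of 0.0313 in the same test, so that this library decided the call.

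TUBB4B (chr9:137241287-137243707, plus strand), a broadly expressed beta isotype also found in cilia, had 202, 225 and 231 FPKM in si-SCR and 181, 187 and 202 FPKM in si-CyCoNP. In these FPKM, which lack the TMM correction that enters the test, the groups touched. The highest si-CyCoNP library equalled the lowest si-SCR library to 3 digits. The log2 fold change was -0.27 ± 0.079 (SE; edgeR quasi-likelihood test, adjusted p = 0.0101), with 82.7% of the level remaining. The call was lost without si-CyCoNP replicate 1 (log2 fold change -0.24, edgeR adjusted p = 0.0688), with library totals alone (-0.21, edgeR adjusted p = 0.05003) and with limma on log2(FPKM + 1) (-0.21, adjusted p = 0.0948) or log2(FPKM + 0.1) (-0.21, adjusted p = 0.0920).

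TUBB4A (chr19:6494319-6502848, minus strand), an isotype characteristic of brain and oligodendrocytes, moved the other way. It was listed at 4.05, 4.38 and 3.90 FPKM in si-SCR and at 7.31, 8.26 and 5.54 FPKM in si-CyCoNP. Every si-CyCoNP library lay above every si-SCR library, with 74 to 113 counts against 53 to 60. The log2 fold change was 0.71 ± 0.182 (SE; edgeR quasi-likelihood test, adjusted p = 0.00364), a 1.64-fold increase with a 95% interval from 127% to 213% of the si-SCR level. TUBB4A still amounted to 0.907% ± 0.190 of the TUBB level in si-CyCoNP, against 0.551% ± 0.0516 in si-SCR (SD, n = 3).

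TUBB, the major beta isotype of cultured cells, was listed at 751, 721 and 770 FPKM in si-SCR and at 778, 765 and 789 FPKM in si-CyCoNP. The groups overlapped by 1 library. The log2 fold change was -0.010 (edgeR quasi-likelihood test, adjusted p = 0.940), its sign turned under 5 of 15 alternatives, and the 95% interval ran from 89.8% to 109.8% of the si-SCR level. TUBB6, a beta isotype of non-neuronal tissues, was listed at 19.97, 18.3 and 18.0 FPKM in si-SCR and at 19.7, 14.6 and 17.8 FPKM in si-CyCoNP, and did not pass (log2 fold change -0.17, edgeR quasi-likelihood test, adjusted p = 0.275). TUBB3 was counted 73, 51 and 53 times with si-SCR and 71, 55 and 51 times with si-CyCoNP (log2 fold change -0.12, edgeR quasi-likelihood test, adjusted p = 0.722), and the limit given above applies to these counts.

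**Figure D3:**
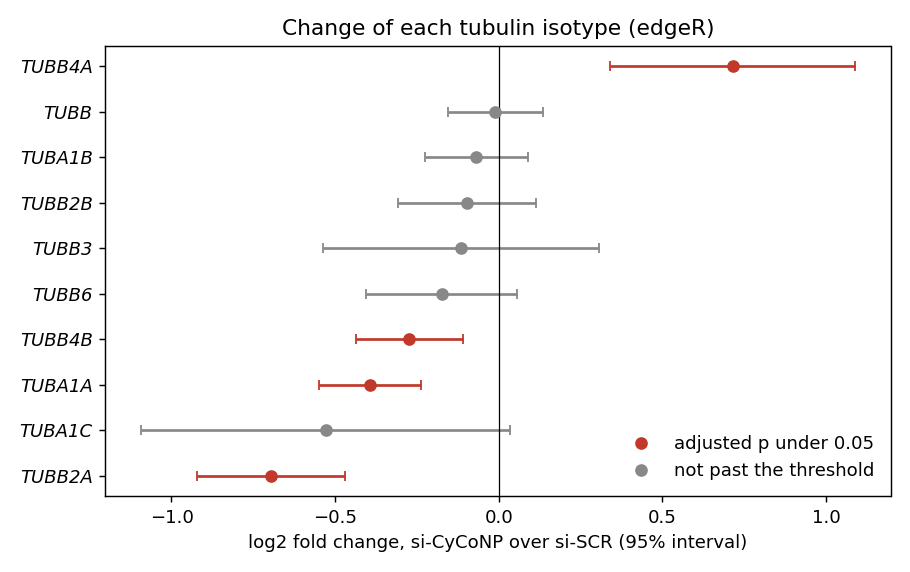
Log2 fold change of each tubulin isotype in si-CyCoNP over si-SCR with its 95% interval from edgeR. Red points mark an adjusted p under 0.05, with TUBB4A at 0.71 on the right and TUBB4B, TUBA1A and TUBB2A at -0.27, -0.39 and -0.70 on the left.

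In the deposited FPKM, 3 of the 10 members did not overlap between the groups, against 40.3% of all genes tested. The summed FPKM of the members was 2317, 2277 and 2332 with si-SCR, and 2149, 2135 and 2151 with si-CyCoNP. All si-CyCoNP sums lay below all si-SCR sums, a log2 ratio of the group means of -0.11 (exact permutation test, two-sided, p = 0.1, the smallest possible). With FPKM scaled by the TMM factors, as in the fold changes, the log2 ratio was -0.17, and from counts not divided by length -0.16, both without overlap. The alpha sum was 1204 ± 17.1 FPKM in si-SCR and 1057 ± 5.58 in si-CyCoNP (SD, n = 3) without overlap, with the same p in the same exact test. Most of this difference was TUBA1A, at means of 727 and 581 FPKM, against 476 and 475 for TUBA1B and 1.94 and 1.39 for TUBA1C. The beta sum was 1104 ± 19.8 and 1088 ± 7.41 FPKM (SD, n = 3) and overlapped (exact permutation test, two-sided, p = 0.3). The ratio of alpha to beta tubulin was accordingly 1.09 ± 0.0227 in si-SCR and 0.971 ± 0.00901 in si-CyCoNP (SD, n = 3), without overlap (exact permutation test, two-sided, p = 0.1). The level of the ratio depends on the length used: with countable windows of 100 bases in place of gene length, and without TUBB3, it was 2.17 ± 0.0267 in si-SCR and 1.995 ± 0.0212 in si-CyCoNP, again without overlap (SD, n = 3). Whether alpha exceeded beta tubulin mRNA in si-CyCoNP thus changes with the length. Leaving out TUBB3 alone left the difference in the FPKM ratio at -0.12, but this does not show what a full count of TUBB3 would give.

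The composition of the tubulin pool was then compared as the share of each isotype in the summed FPKM, which depends on the gene lengths used. TUBB made up 32.4% ± 0.692 of the pool in si-SCR and 36.2% ± 0.420 in si-CyCoNP, and TUBA1A 31.5% ± 2.06 and 27.1% ± 1.55 (SD, n = 3). TUBB2A made up 2.08% ± 0.212 and 1.44% ± 0.136, and TUBB4A 0.178% ± 0.0128 and 0.328% ± 0.0653. These were the 4 members of 10 whose shares did not overlap between the groups. Each had an exact two-sided permutation p of 0.1, the smallest the design allows, not adjusted over the 10 members. For comparison, the FPKM of 40.3% of all genes tested did not overlap between the groups. The difference was 3.88 percentage points for TUBB and -4.42 for TUBA1A. With countable windows of 100 bases in place of gene length, TUBB made up 19.7% ± 0.348 and 22.3% ± 0.180 (SD, n = 3), a difference of 2.58 points, and TUBA1B 33.3% ± 2.47 and 36.1% ± 2.07. The difference of TUBB4A was then 0.099 points, against 0.15, and that of TUBB2A was -0.36 points from counts not divided by length, against -0.63. The number of members without overlap was 4 on each of these scales. Shares sum to 100 by construction, and the level of TUBB itself did not pass the test. TUBA1B accounted for 20.6% ± 1.62 and 22.1% ± 1.35, TUBB4B for 9.50% ± 0.664 and 8.86% ± 0.507 and TUBB2B for 2.76% ± 0.227 and 2.91% ± 0.479 of the pool (SD, n = 3), with overlapping groups. TUBB6, TUBB3 and TUBA1C each stayed below 1% and overlapped. Within the beta family alone, TUBB4B also separated, at 19.9% ± 1.20 in si-SCR and 17.5% ± 0.918 in si-CyCoNP (SD, n = 3), whereas within the alpha family none of the 3 members did.

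**Figure D4:**
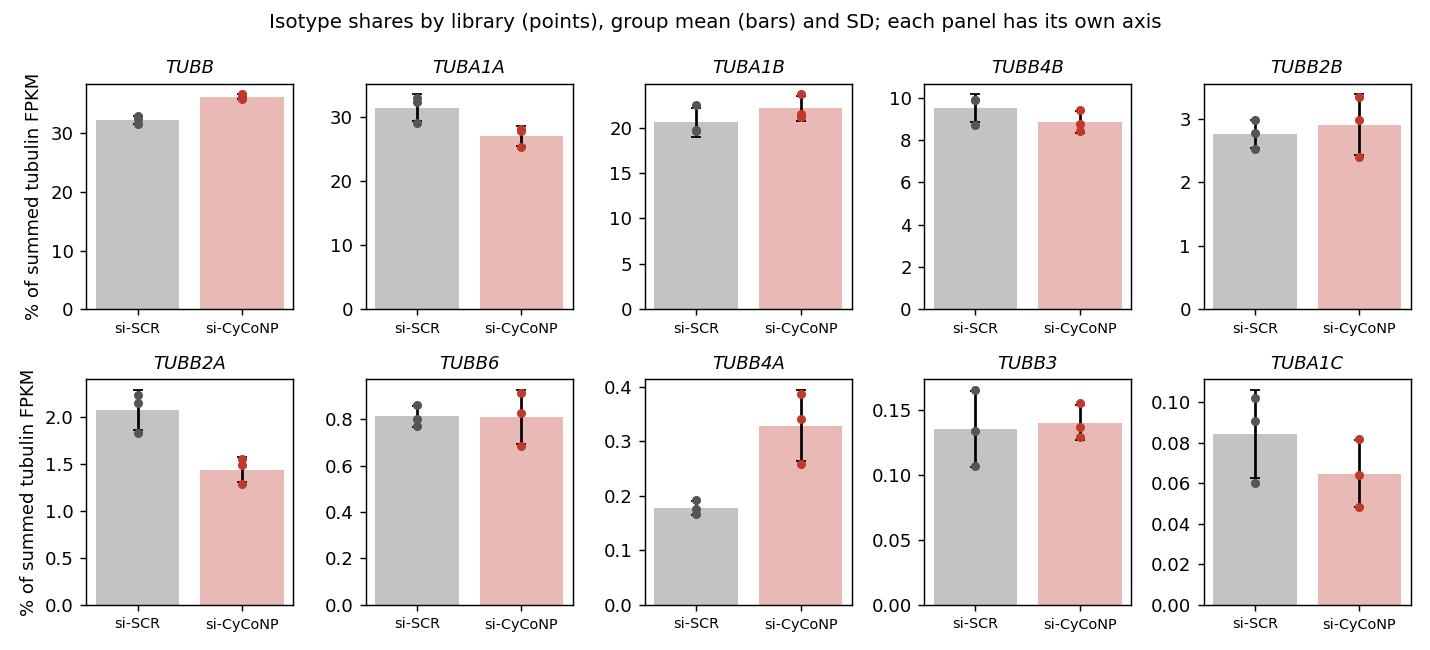
Share of each isotype in the summed FPKM of the 10 members, as points per library with the group mean (bars) and SD, each panel with its own axis starting at 0. The groups are apart for TUBB (32.4% and 36.2%), TUBA1A (31.5% and 27.1%), TUBB2A (2.08% and 1.44%) and TUBB4A (0.178% and 0.328%).

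Other tubulin genes were examined with the same fit. Of 14 genes, 5 were tested, and 8 of the remaining 9 were listed at 0 in every library. Among the 5 tested, 1 was higher and 2 were lower, where 14.2% of all genes tested were called in each direction. TUBA4A, an alpha tubulin that lacks the genetically encoded C-terminal tyrosine, was listed at 0.822, 1.01 and 1.00 FPKM in si-SCR and at 2.52, 3.09 and 3.28 FPKM in si-CyCoNP. The groups were well apart, from 14 to 19 counts against 48 to 54, with a log2 fold change of 1.58 ± 0.266 (SE; edgeR quasi-likelihood test, adjusted p = 4.51e-05). TUBG1 and TUBG2, the gamma tubulins that nucleate microtubules, were lower, with log2 fold changes of -0.26 and -0.64 (edgeR quasi-likelihood test, adjusted p = 0.0395 and 0.0124). The call of TUBG1 was lost under 10 of 15 alternatives, among them each left-out library but si-SCR replicate 1 (edgeR adjusted p from 0.0680 to 0.167), and that of TUBG2 without si-CyCoNP replicate 2 (-0.54, edgeR adjusted p = 0.0689). The 51 tubulin pseudogenes held between 35 and 52 counts per library in all, 0.146% of the members' counts.

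Of the 29 tested genes that fold and assemble tubulin, 3 were higher and 6 lower, where 14.2% of all genes tested were called in each direction. Of the 9 subunits of the gamma-tubulin ring complex, the template for new microtubules, TUBGCP5 was higher (log2 fold change 0.66) and MZT2B (-0.47) and TUBGCP4 (-0.34) were lower, and the median was 0.019. Of the 14 genes of the CCT chaperonin, which folds tubulin, and of prefoldin, which delivers it, PFDN2 (0.35) and CCT5 (0.23) were higher and PFDN1 (-0.64) and CCT3 (-0.24) were lower, with a median of 0.030. Of the 6 tubulin-specific chaperones tested, which assemble the heterodimer, TBCB (-0.38) and TBCD (-0.28) were lower and none was higher, with a median of -0.080. Among these 9 calls (edgeR quasi-likelihood test, adjusted p under 0.05), those of TUBGCP5, MZT2B and PFDN1 held under all 15 alternatives, and the other 6 were each lost under at least 4, with highest adjusted p-values from 0.0687 to 0.218. Without si-CyCoNP replicate 1 all 6 of these calls were lost (edgeR adjusted p from 0.0596 for TBCB to 0.119 for TBCD). Without si-SCR replicate 3 those of PFDN2 (edgeR adjusted p = 0.121), TUBGCP4 (0.0600) and TBCD (0.101) were lost, and without si-SCR replicate 2 those of CCT5 (0.0669), CCT3 (0.0802) and TBCD (0.117). Leaving out si-CyCoNP replicate 2 ended those of CCT5 (edgeR adjusted p = 0.0581), CCT3 (0.0684), TBCB (0.0521) and TBCD (0.135), leaving out si-CyCoNP replicate 3 those of PFDN2 (0.0704), CCT5 (0.0721) and TBCD (0.0622), and leaving out si-SCR replicate 1 that of CCT5 (0.0999).

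None of the 4 genes of tubulin mRNA autoregulation passed the test with edgeR, where 14.2% of all genes tested were called in each direction. Of these 4, 0 had an unadjusted p under 0.05 and 0 passed with DESeq2. TTC5, which reads the nascent chain, had a log2 fold change of -0.26 (edgeR quasi-likelihood test, adjusted p = 0.144). SCAPER, the adaptor between TTC5 and the CCR4-NOT deadenylase, had 0.18 (adjusted p = 0.457 in the same edgeR test), and the CCR4-NOT subunits CNOT10 and CNOT11 had 0.23 and -0.13.

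Enzymes that modify tubulin, many of them at its tail, were compared next. Of 25 genes 18 were tested, of which 5 were higher, 3 lower and 10 did not pass, where 14.2% of all genes were called in each direction, and the median log2 fold change was 0.068. VASH2 and VASH1, the vasohibins that remove the C-terminal tyrosine of alpha tubulin, rose from 2.38 ± 0.684 to 5.11 ± 0.260 FPKM and from 4.54 ± 0.611 to 8.78 ± 1.47 FPKM (SD, n = 3). Their log2 fold changes were 1.02 ± 0.151 and 0.89 ± 0.135 (SE; edgeR quasi-likelihood test, adjusted p = 7.33e-06 and 1.07e-05), whereas SVBP, their partner, had 0.36 and did not pass (adjusted p = 0.410 in the same edgeR test). TTL, which adds the tyrosine back, had -0.30 and did not pass either (edgeR quasi-likelihood test, adjusted p = 0.0584). AGBL5, a carboxypeptidase that removes glutamates at branch points, was higher (0.74 ± 0.144, edgeR adjusted p = 0.000259). TTLL7, a ligase that adds glutamates preferentially to beta tubulin, was the most reduced of the list, from 4.27 ± 0.299 to 2.02 ± 0.332 FPKM (SD, n = 3). This amounted to a log2 change of -1.15 ± 0.140 (SE; edgeR quasi-likelihood test, adjusted p = 3.45e-07). AGTPBP1, which shortens glutamate chains, and SIRT2, a tubulin deacetylase, were lower by smaller amounts (-0.36 and -0.50; edgeR adjusted p = 0.00900 and 0.00903). Both calls were lost without si-CyCoNP replicate 1 (edgeR adjusted p = 0.0558 and 0.0676). They were also lost with limma on log2(FPKM + 1) (adjusted p = 0.07445 and 0.0765) or log2(FPKM + 0.1) (adjusted p = 0.0724 and 0.0821). That of AGTPBP1 was lost without si-SCR replicate 2 as well (edgeR adjusted p = 0.0823).

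**Figure D5:**
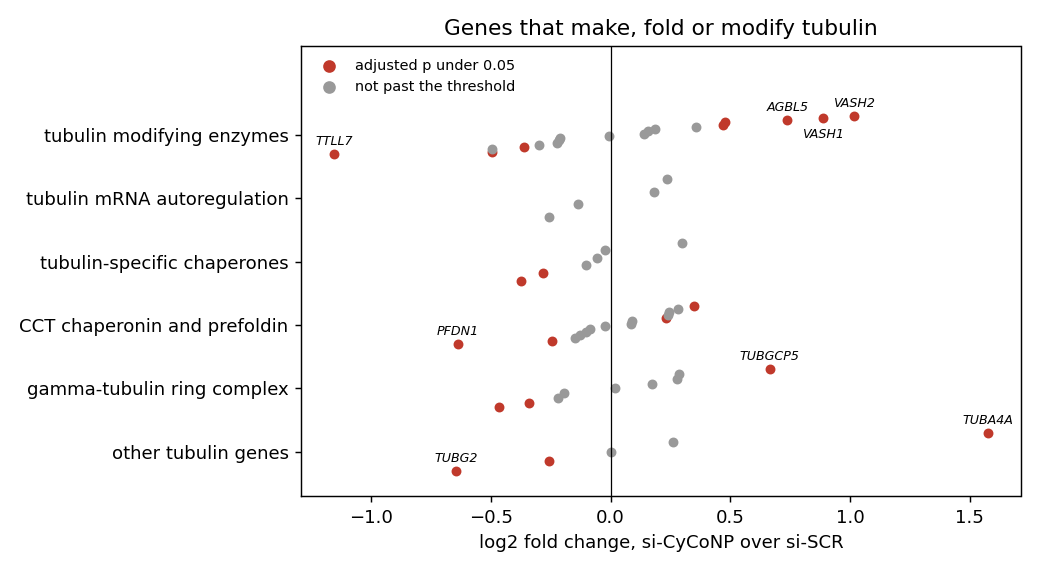
Log2 fold change in si-CyCoNP over si-SCR of each tested gene of 6 lists, 1 point per gene, red where the edgeR adjusted p was under 0.05. TUBA4A (1.58), VASH2 (1.02) and VASH1 (0.89) lie farthest to the right and TTLL7 (-1.15) farthest to the left.

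The genes whose profile over the 6 libraries was most like that of TUBB2A were sought among 4328 tested genes with a mean of at least 10 FPKM that are not tubulins, by the root mean square difference of centred log2 CPM. They were ARID3B (0.0454), GNB1 (0.0498) and HOXD9 (0.0625). For TUBB3 the same measure gave MAP1B (0.0508), NRSN2 (0.0732) and ISL1 (0.0757), where the limit on the TUBB3 counts applies.

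Since CyCoNP was studied as a partner of miR-4492, the 3′ untranslated regions of the members were searched for its seed match. The mature miRNA, from RefSeq, is given with its seed (bases 2 to 8) in capitals.
miR-4492: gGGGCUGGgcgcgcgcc
The complement of the seed, CCAGCCC, read on the mRNA strand only, was in 0 of the 10 members' regions, which ran from 151 to 1373 bases. It was in 23.4% of those of 10487 tested genes, whose median length was 1397 bases. No match says only that these letters are not in these regions.

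Markers of cell state were compared beside the tubulins. None of 10 proliferation markers passed the edgeR quasi-likelihood test, where 14.2% of all genes tested were called in each direction. Of these 10, 3 had an unadjusted p under 0.05 in that test and 0 passed with DESeq2. Their summed level ranged from 355 to 464 FPKM in si-SCR and from 396 to 449 in si-CyCoNP. The same share over all genes tested applies to the lists that follow. Of 9 adrenergic neuroblastoma markers 6 were lower, among them PHOX2A (log2 fold change -1.13), CHGB (-1.01) and CHGA (-1.24), and 1 was higher, MYCN (0.84). Their summed level was 2342 to 2786 FPKM in si-SCR and 1953 to 2124 in si-CyCoNP. Of 7 mesenchymal markers 4 were tested, with FN1 (2.88) and COL1A1 (1.68) higher and SNAI2 (-1.27) and VIM (-0.43) lower. Their median log2 fold change was 0.63. The summed level of the mesenchymal markers was 62.7 to 68.9 FPKM in si-SCR and 50.4 to 57.2 in si-CyCoNP, and PRRX1 was listed at 0 in all libraries. Most of this sum was VIM, at a mean of 56.3 FPKM in si-SCR and 43.9 in si-CyCoNP. FN1 stood at a mean of 0.697 and 5.41 FPKM and COL1A1 at 0.450 and 1.50. The summed level of the adrenergic markers was lower in si-CyCoNP without overlap, and that of the proliferation markers overlapped. The mesenchymal sum was also lower without overlap, but it follows VIM, and the 4 markers tested went in both directions. The part of these markers in the tubulin differences was not tested. In such bulk samples, fewer cells of a kind and less RNA per cell cannot be told apart.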

How the data were processed

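The 6 libraries of SK-N-BE cells were all used, grouped by sample title. The authors prepared stranded, rRNA-depleted total RNA libraries, trimmed reads with Trimmomatic 0.39 and cutadapt 3.2, removed rRNA reads with Bowtie2 2.4.2, aligned to GRCh38 with STAR 2.7.7a and deposited raw counts of uniquely mapping fragments per Ensembl gene. The deposited FPKM values are those counts scaled by gene length and library total. Fragments shared by paralogs or by overlapping genes on 1 strand are absent from both. Whether the deposited counts were taken by strand is not stated. If they were not, fragments overlapping a gene on the opposite strand are absent as well. In GENCODE v44 such overlaps exist for TUBA1A, TUBA1B, TUBA1C, TUBB, TUBB4A and TUBB4B. Symbols matched 60357 of 60676 identifiers.

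Genes with a mean of at least 1 FPKM in either group were tested with the edgeR 4.0.16 quasi-likelihood test (TMM, R 4.3.3), a fit tested on simulated data. Single values were compared by exact two-sided permutation (scipy 1.17.1). The study's methods name DESeq2, run here (1.42.0) as an alternative, with limma 3.58.1, other scalings and filters, a replicate block and each library left out. All members are named, with up to 3 genes per list and direction by smallest p. A few further list genes (TTC5, SCAPER, CNOT10, CNOT11, SVBP, TTL) were named after their values were seen. The members and lists were chosen with earlier results of these data known. No library duplicated another (chi-square per degree of freedom 2.42 to 5.16 between replicates). The largest values came from si-SCR replicate 3, at 5.16 and 3.98 against the other si-SCR libraries. Between si-SCR replicates 1 and 2 it was 2.6, and between si-CyCoNP libraries 2.42 to 2.63. Counting precision is limited by 3762009 to 4799407 counts per library.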

Additional observations from a re-analysis of the deposited data

How the results depend on the processing

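The calls of TUBA1A, TUBB2A and TUBB4A held under all 15 alternative fits, with log2 fold changes from -0.46 to -0.32, -0.79 to -0.61 and 0.59 to 0.85, and 0 members passed a log2 fold change of 1 in any. The number of members lower ranged from 2 to 4. TUBB turned positive with library totals alone (0.058), limma on log2(FPKM + 1) (0.057) or log2(FPKM + 0.1) (0.058), and when si-SCR replicate 1 (0.0077) or si-CyCoNP replicate 2 (0.0065) was left out, within a range from -0.029 to 0.0077 over the left-out libraries. With libraries left out, TUBB2B ranged from -0.20 to 0.013 (positive without si-CyCoNP replicate 3) and TUBB3 from -0.29 to 0.076 (positive without si-SCR replicate 1). None of these passed the test. The log2 ratio of summed tubulin was -0.16 from counts not divided by length, -0.12 per countable window and -0.17 after TMM scaling, against -0.11. The alpha to beta difference was -0.15 and -0.17 in the first pair, against -0.12. With each library left out these ranged from -0.12 to -0.099 and from -0.13 to -0.11. The number of shares that separated the groups ranged from 4 to 6.

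The labels do not say whether replicate numbers shared by the groups mark pairs. Deviations of same-numbered libraries correlated at 0.091, 0.073 and 0.108. These correlations were low, but all 6 libraries correlated best with their own number, a hint of pairing from the data. With the replicate block, 1 member was higher and 3 were lower, as without it. Within replicate numbers, 7 shares differed in 1 direction in all 3 pairs. Leaving out TUBB3 was chosen after seeing the data. Among the members, low counts per library limit TUBA1C (20 to 47), TUBB3 (51 to 73) and TUBB4A (53 to 113) most.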
